A study of Mus musculus with 7 samples.

Results

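The genes examined here are 10 regulators of the entry into S phase, chosen by name: Trp53 and its partners Mdm2 and Ccng1, the cyclin-dependent kinase (CDK) inhibitor genes Cdkn1a, Cdkn1b, Cdkn2a and Cdkn2b, and the D cyclin genes Ccnd1, Ccnd2 and Ccnd3. All 10 were measured, among 31498 genes of the GENCODE M1 annotation of mm9. RNA-seq was performed on 4 clones of F123, a hybrid mouse ESC line with 1 CAST parent (Mus musculus castaneus) and 1 129 parent (S129/SvJae), with 1 library per clone. The wild type clone keeps the distal super-enhancer (SE) downstream of Sox2 on both alleles, CAST+/129- lacks it on the 129 allele, CAST-/129+ lacks it on the CAST allele, and CAST-/129- lacks it on both. ChIP-seq for H3K4me3 in F123 and for H3K27ac in F123 and in J1, an ESC line of 129 background, gave 3 further libraries from cells without the deletion. Deletion clones were made with CRISPR plasmids and a puromycin resistance plasmid, recovered under puromycin on feeder fibroblasts, and passaged without feeders before harvest. Each genotype is therefore 1 clone and 1 library, no difference between genotypes has a replicate check, and no p-value is given.

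p53, the product of Trp53, is held at a low level by the ubiquitin ligase Mdm2, which is itself a p53 target, so that the pair forms a negative feedback loop. CDK inhibitors of the Cip/Kip family bind cyclin-CDK complexes, and those of the Ink4 family bind the kinases that pair with D cyclins. D cyclins carry growth signals to the retinoblastoma protein, and ESCs are known for a short G1 phase with little of the Ink4 inhibitors and Cdkn1a.

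Expression is given as FPKM, which scales the distinct alignments on the sense strand by exon length and by the library's alignments on genes. The library size was between 5831199 alignments in CAST-/129- and 24848422 in wild type. Intervals in parentheses are exact 95% intervals (Poisson for a level, binomial for a ratio of counts). They cover counting error only, and they are too narrow, because the segments of 1 spliced read stand on separate lines. A gene was called changed when FPKM plus 4 differed at least 3-fold from wild type, so that a gene below 8 FPKM in both libraries could not be called. Sox2 itself was at 175 FPKM in wild type, while CAST+/129- had 82.0, CAST-/129+ had 73.1 and CAST-/129- had 7.40. In bulk RNA, fewer cells of a type and less RNA per cell cannot be told apart.

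In the CAST-/129- clone, 4 of the 10 genes (Cdkn2a, Cdkn2b, Ccnd1 and Ccnd2) were higher by at least 3-fold and none was lower. Over all genes the share called was 0.819% up and 0.511% down, and among the 13826 genes with a mean of at least 1 FPKM, to which the 10 belong, 1.87% were up. In CAST+/129- none of the 10 was called up, against 0.321% of all genes, and none down, against 0.305%. Ccnd2 (1.28 FPKM in wild type and 6.88 in CAST+/129-) and Cdkn2b (1.96 and 5.88) were below 8 in both and could not be called. In CAST-/129+ none was called up, against 0.473%, and none down, against 0.33%. There Ccnd2, at 5.50 FPKM, could not be called for the same reason. The median log2 ratio of the 10 genes on the FPKM plus 4 scale was 0.20 in CAST+/129-, 0.33 in CAST-/129+ and 1.11 in CAST-/129-. The median of all 31498 genes was 0.0 in each, a value that silent genes hold near 0. Among the genes with a mean of at least 1 FPKM it was -0.03, -0.06 and -0.08. The 10 genes were chosen with earlier results in view, so that these counts describe the genes and test nothing.

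**Figure D1:**
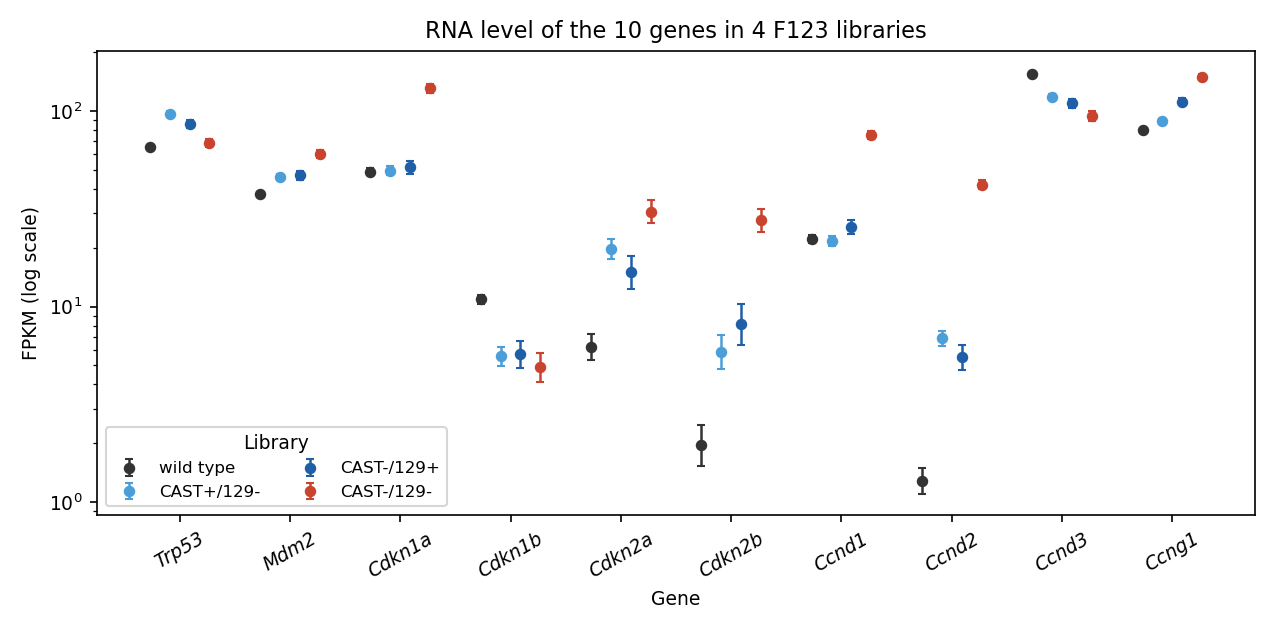
FPKM on a log axis for each of the 10 genes in the 4 F123 libraries, with exact 95% Poisson intervals of counting error as bars. In wild type the genes span 1.28 (Ccnd2) to 155 FPKM (Ccnd3), and in CAST-/129- they span 4.90 (Cdkn1b) to 150 FPKM (Ccng1).

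Ordered by level in wild type, Ccnd3 came first at 155 FPKM, followed by Ccng1, Trp53, Cdkn1a, Mdm2, Ccnd1, Cdkn1b, Cdkn2a, Cdkn2b and Ccnd2 at 1.28 FPKM, and no neighbours in this order had overlapping counting intervals. In CAST-/129- the order was Ccng1, Cdkn1a, Ccnd3, Ccnd1, Trp53, Mdm2, Ccnd2, Cdkn2a, Cdkn2b and Cdkn1b. There the intervals of Ccnd1 and Trp53 overlapped, and so did those of Cdkn2a and Cdkn2b. The wild type FPKM of the 3 genes at the bottom of the order, Cdkn2a, Cdkn2b and Ccnd2, were all below 8, and these genes had the 3 largest log2 ratios in CAST-/129-.

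**Figure D2:**
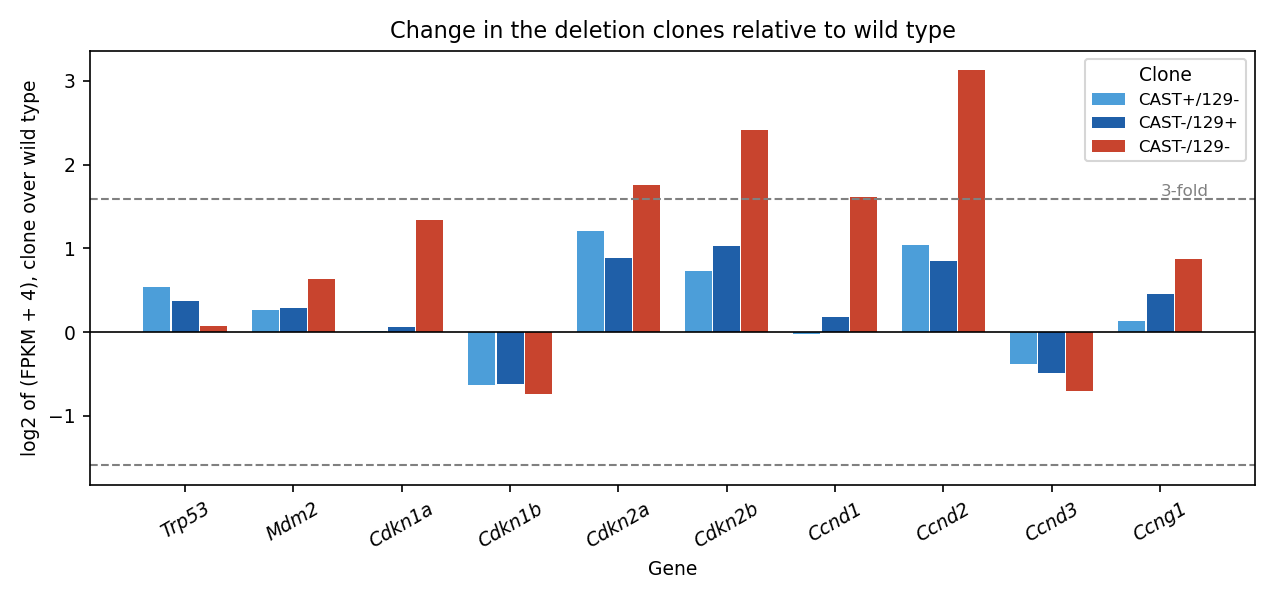
Change of each gene relative to wild type, as log2 of FPKM plus 4, in the 3 deletion clones; dashed lines mark 3-fold. In CAST-/129- the bars of Cdkn2a (1.76), Cdkn2b (2.41), Ccnd1 (1.61) and Ccnd2 (3.12) pass the line, with Ccnd1 just above it and Cdkn1a (1.34) below it.

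Trp53 (ENSMUSG00000059552.6, chr11:69393861-69405375, plus strand), which encodes p53, was at 65.2 FPKM (63.6 to 66.8) in wild type, compared with 96.9 (94.2 to 99.7) for CAST+/129-, 85.7 (82.1 to 89.5) for CAST-/129+ and 68.9 (65.5 to 72.3) for CAST-/129-. The clones with the deletion on 1 allele were therefore the high ones, at 149% and 132% of wild type, and CAST-/129- lay within counting error of wild type at 106% (99.98 to 112) over the whole gene. Its exons did not move together. Of the 6 exons with at least 50 wild type counts, 5 were above wild type in CAST-/129- and 1, the last (chr11:69404756-69405375), was at 72.4% (65.3 to 80.2). The highest of them (chr11:69400393-69400475) was at 176% (135 to 227). Size and direction of the difference for Trp53 depended on the unit. With each start position counted once, the log2 ratio was 0.59 in CAST+/129-, 0.83 in CAST-/129+ and 0.59 in CAST-/129-, compared with 0.54, 0.38 and 0.07 in alignments. That unit cannot exceed the 4045 exonic bases of the gene, fewer than its 6552 wild type alignments. An alignment of Trp53 stood for 3.74 reads in the wild type library, compared with 2.49 for CAST+/129-, 1.71 for CAST-/129+ and 1.58 for CAST-/129-, and in reads before collapsing the gene was at 145%, 96.1% and 79.2% of wild type, so that the difference changed sign in CAST-/129+ and CAST-/129-.

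Mdm2 (ENSMUSG00000020184.8, chr10:117125944-117147814, minus strand) was at 37.6 FPKM (36.5 to 38.6) in wild type, while CAST+/129- had 46.0 (44.3 to 47.7), CAST-/129+ had 46.9 (44.6 to 49.4) and CAST-/129- had 60.4 (57.6 to 63.2). The wild type library was the lowest and CAST-/129- the highest, at 161% of wild type (152 to 170). All 8 exons with at least 50 wild type counts were higher than in wild type in each deletion clone, and in CAST-/129- they ranged from 139% to 279%.

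Ccng1 (ENSMUSG00000020326.7, chr11:40562054-40568813, minus strand), which encodes cyclin G1, a p53 target that acts on Mdm2, was at 80.0 FPKM (78.2 to 81.9) in wild type, compared with 88.6 (85.8 to 91.4) for CAST+/129-, 111 (107 to 116) for CAST-/129+ and 150 (145 to 156) for CAST-/129-. Its 4 intervals did not overlap. As for Mdm2, wild type was the lowest library and CAST-/129- the highest, while the Mdm2 levels of CAST+/129- and CAST-/129+ were within counting error of each other. All 6 exons were above wild type in each clone, at 178% to 272% in CAST-/129-. With log2 ratios of 0.63 for Mdm2 and 0.88 for Ccng1 in CAST-/129-, neither passed 3-fold.

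Around these genes, a list of 10 other p53 regulators had 0 members past 3-fold in any clone, near the share of all genes (at most 0.819%). Its median log2 ratio in CAST-/129- was -0.05. Mdm4, the partner of Mdm2 that blocks p53, was at 52.1 FPKM in wild type, compared with 47.5 for CAST+/129-, 35.6 for CAST-/129+ and 34.1 for CAST-/129-. Of 22 p53 target genes, 2 were called up in each clone, against 0.321%, 0.473% and 0.819% of all genes in CAST+/129-, CAST-/129+ and CAST-/129-. None of the 22 was called down, against 0.305%, 0.33% and 0.511%. The genes called up were Sfn and Thbs1 in every clone, genes for 14-3-3 sigma and a matrix glycoprotein. Thbs1, for example, was at 2.27 FPKM in wild type, while CAST+/129- had 69.7, CAST-/129+ had 33.7 and CAST-/129- had 128. The apoptosis gene Bax stayed below the threshold, at 63.1 FPKM in wild type and 99.9, 89.7 and 95.0 in the clones, and so did Gadd45a, a growth arrest gene at 30.1 FPKM in wild type and 13.5, 8.89 and 13.7 in the clones. The median log2 ratio of the 22 targets was 0.01, -0.08 and 0.36 in the order CAST+/129-, CAST-/129+ and CAST-/129-.

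Cdkn1a (ENSMUSG00000023067.7, chr17:29227924-29237667, plus strand), which encodes the Cip/Kip inhibitor p21, was at 49.1 FPKM (47.2 to 50.9) in wild type, compared with 49.4 (46.8 to 52.1) for CAST+/129-, 51.5 (47.8 to 55.5) for CAST-/129+ and 131 (124 to 137) for CAST-/129-. The wild type level was above that of 94.8% of genes, many of them silent. No library of a differentiated cell type was measured. This rank within 1 library therefore cannot be set against the low Cdkn1a named above for ESCs. Over the whole gene the first 3 libraries overlapped and CAST-/129- was higher, at 266% of wild type (250 to 283). This was a log2 ratio of 1.34, below 3-fold. It was also 264% (246 to 284) of CAST+/129- and 253% (232 to 277) of CAST-/129+, comparisons that leave the wild type library out. All 4 exons were higher than wild type in CAST-/129-, at 225% to 360%. On the outermost exon (chr17:29227924-29228046), however, CAST+/129- was at 218% (148 to 320), beside 225% (138 to 359) for CAST-/129-. Counted in reads before collapsing the gene was at 325% of wild type and passed the threshold.

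Cdkn1b (ENSMUSG00000003031.8, chr6:134870419-134875531, plus strand), which encodes the Cip/Kip inhibitor p27, was at 10.9 FPKM (10.3 to 11.5) in wild type, compared with 5.59 (4.99 to 6.24) for CAST+/129-, 5.73 (4.87 to 6.69) for CAST-/129+ and 4.90 (4.09 to 5.82) for CAST-/129-. All deletion clones were below wild type, at 51.3%, 52.6% and 44.96%, and their intervals overlapped each other. Both exons were lower in each clone, at 39.0% to 61.1% of wild type. Cdkn1b thus stood opposite to Cdkn1a in CAST-/129-, where Cdkn1a made up 96.4% of the summed Cip/Kip FPKM of the pair, compared with 81.8% in wild type. A further gene of the family, Cdkn1c, which encodes p57, came from a list of 3 other CDK inhibitors. It was at 2.92 FPKM in wild type, while CAST+/129- had 12.8, CAST-/129+ had 20.9 and CAST-/129- had 168. It was called up in CAST-/129+ and CAST-/129-, with a log2 ratio of 4.64 in the latter. Cdkn2c and Cdkn2d of the same list were at most 5.64 FPKM in any library and could not be called.

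The Ink4 locus holds Cdkn2a (ENSMUSG00000044303.5, chr4:88920377-88940557, minus strand) and Cdkn2b (ENSMUSG00000073802.4, chr4:88952198-88956941, minus strand). Cdkn2a has 2 first exons with a promoter each, exon 1beta for p19Arf, which binds Mdm2, and exon 1alpha for p16Ink4a, a CDK inhibitor, both joined to the same exon 2. Cdkn2b encodes the inhibitor p15Ink4b. Their promoters are shown because the locus changed by start site, as described below, and because its start windows were not called marked by H3K27ac. Each sequence runs 5′ to 3′ on the gene's strand from 250 bases before to 50 bases after the start, and is the RefSeq sequence of the GRCm38.p6 table, matched exactly once in mm9. Capitals mark the GC box, GGGCGG on either strand.
Cdkn2a exon 1beta start (mm9 chr4:88940474-88940773, minus strand): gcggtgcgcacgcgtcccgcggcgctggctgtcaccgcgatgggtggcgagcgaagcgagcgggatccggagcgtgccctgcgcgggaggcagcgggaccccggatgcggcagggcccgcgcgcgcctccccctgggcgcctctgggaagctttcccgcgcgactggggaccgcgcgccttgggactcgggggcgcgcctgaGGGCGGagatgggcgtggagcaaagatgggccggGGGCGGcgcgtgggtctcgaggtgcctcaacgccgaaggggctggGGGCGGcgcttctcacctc
Cdkn2a exon 1alpha start (mm9 chr4:88928047-88928346, minus strand): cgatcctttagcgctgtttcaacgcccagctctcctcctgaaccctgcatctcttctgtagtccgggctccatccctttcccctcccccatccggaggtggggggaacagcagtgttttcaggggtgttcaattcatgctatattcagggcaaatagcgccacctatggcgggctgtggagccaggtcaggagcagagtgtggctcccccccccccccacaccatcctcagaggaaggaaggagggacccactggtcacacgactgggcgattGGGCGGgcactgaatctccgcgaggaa
Cdkn2b start (mm9 chr4:88956892-88957191, minus strand): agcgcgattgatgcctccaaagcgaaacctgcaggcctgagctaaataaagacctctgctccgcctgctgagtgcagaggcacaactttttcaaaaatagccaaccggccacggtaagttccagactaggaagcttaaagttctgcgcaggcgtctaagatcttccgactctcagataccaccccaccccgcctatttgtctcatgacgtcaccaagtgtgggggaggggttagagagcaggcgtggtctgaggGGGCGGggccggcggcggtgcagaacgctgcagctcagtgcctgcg
The exon 1beta promoter held 3 GC boxes and 45 CG dinucleotides, the exon 1alpha promoter 1 and 12, and the Cdkn2b promoter 1 and 18. Over 32851 promoters of the same length, 35.7% held a GC box and the median number of CG dinucleotides was 7.

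Cdkn2a was at 6.23 FPKM (5.35 to 7.20) in wild type, compared with 19.6 (17.4 to 22.0) for CAST+/129-, 15.0 (12.2 to 18.1) for CAST-/129+ and 30.6 (26.6 to 35.1) for CAST-/129-. The wild type library was the lowest and CAST-/129- the highest, with no overlap between these and the other clones. The gene was at 315% (261 to 382), 240% (187 to 307) and 492% (401 to 604) of wild type in FPKM. With the pseudo-value these became log2 ratios of 1.21, 0.89 and 1.76, of which only the last passed 3-fold. That call was lost with each start position counted once (1.44) and with a pseudo-value of 10 (1.32).

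The exons separated the transcripts. Exon 1alpha (207 bases, chr4:88927890-88928096) had 4 counts in wild type, compared with 12 for CAST+/129-, 4 for CAST-/129+ and 28 for CAST-/129-. These were 0.78 FPKM (0.21 to 1.99), 4.65 (2.40 to 8.13), 3.19 (0.87 to 8.17) and 23.2 (15.4 to 33.5). Only CAST-/129- stood above all other libraries beyond counting error. CAST+/129- also stood above wild type, at 598% (181 to 2545). Exon 1beta (320 bases, chr4:88940238-88940557) had 49, 79, 15 and 33 counts in the same order of libraries. These were 6.16 FPKM (4.56 to 8.15), 19.8 (15.7 to 24.7), 7.74 (4.33 to 12.8) and 17.7 (12.2 to 24.8). CAST+/129- and CAST-/129- were thus alike within counting error, and the interval of CAST-/129+ overlapped those of wild type and CAST-/129-. Of the counts on either first exon, exon 1alpha took 7.55% (2.09 to 18.2, exact binomial interval) in wild type. The share was 13.2% (7.004 to 21.9) for CAST+/129-, 21.1% (6.05 to 45.6) for CAST-/129+ and 45.9% (33.1 to 59.2) for CAST-/129-. The share of the p16Ink4a exon was therefore higher in CAST-/129- than in wild type and CAST+/129- beyond counting error, and its difference from CAST-/129+, with 19 counts on both first exons, was within it.

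**Figure D3:**
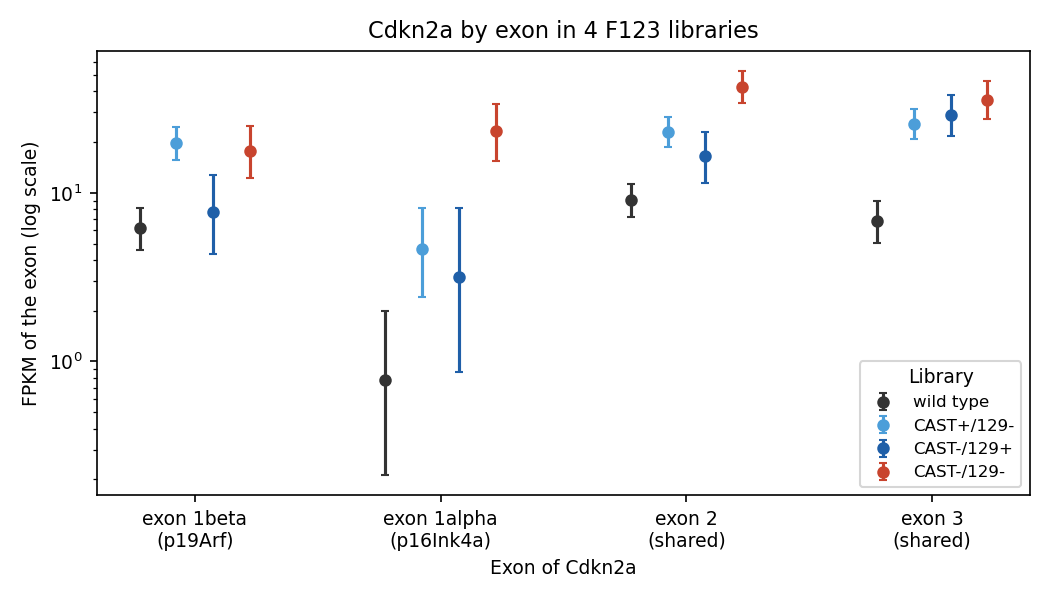
FPKM of each Cdkn2a exon on a log axis in the 4 F123 libraries, with exact 95% Poisson intervals. The exon 1alpha point of CAST-/129- (23.2 FPKM) stands above the other libraries (0.78 to 4.65), while on exon 1beta CAST+/129- (19.8) and CAST-/129- (17.7) overlap.

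Cdkn2b was at 1.96 FPKM (1.53 to 2.49) in wild type, while CAST+/129- had 5.88 (4.79 to 7.13), CAST-/129+ had 8.18 (6.36 to 10.3) and CAST-/129- had 27.7 (24.2 to 31.6). Counts were 68, 102, 69 and 225. Wild type was again the lowest library and CAST-/129- the highest, at 1410% of wild type (1071 to 1878) and a log2 ratio of 2.41. It was 471% (371 to 602) of CAST+/129- and 339% (258 to 450) of CAST-/129+. Both exons were higher in CAST-/129-, at 38 counts against 10 on the first and 187 against 58 on the second. Antisense alignments made up 27.7% of those on both strands of Cdkn2b for wild type. For the deletion clones, in the order given above, they made up 3.77%, 10.4% and 2.60%. The antisense counts behind these shares were 26, 4, 8 and 6, and each share also depends on the sense count. Wild type had 24848422 alignments on genes and CAST-/129- had 5831199. The lower share of CAST-/129- therefore does not by itself show less antisense RNA. Cdkn2a and Cdkn2b resemble each other in their shared coding domain, and how reads that match both were treated is not given in the sources used here. On each first exon of Cdkn2a and on both exons of Cdkn2b, CAST-/129- was the highest library or within counting error of it.

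Summed over the locus, Cdkn2a and Cdkn2b were at 8.19 FPKM in wild type, compared with 25.5 for CAST+/129-, 23.1 for CAST-/129+ and 58.3 for CAST-/129-, which was 7.12 times wild type. The sum of all 4 inhibitors went from 68.1 to 194 FPKM between wild type and CAST-/129-, with Cdkn1a at 72.0% and 67.4% of it. Cdkn1a was thus the largest part of this sum in both libraries, although Cdkn2b had the larger ratio. The sum leaves out Cdkn1c, which at 168 FPKM was above Cdkn1a in CAST-/129-.

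Ccnd1 (ENSMUSG00000070348.4, chr7:152115836-152125774, minus strand), which encodes cyclin D1, was at 22.1 FPKM (21.2 to 23.1) in wild type, compared with 21.7 (20.4 to 23.0) for CAST+/129-, 25.6 (23.5 to 27.7) for CAST-/129+ and 75.7 (72.1 to 79.4) for CAST-/129-. CAST-/129- was the highest library, at 342% of wild type (320 to 365), and CAST-/129+ was slightly above wild type, at 116% (105 to 127). The CAST+/129- value did not differ from wild type beyond counting error (98.0%, 90.9 to 106), and the sign of its log2 ratio turned with the scaling and the unit. All 5 exons were higher in CAST-/129-, at 246% to 372%. The log2 ratio of 1.61 lay close to the threshold. It fell below it with both strands counted (1.58), with every library thinned to the shallowest (1.48), with each start position counted once (1.33) and with a pseudo-value of 10 (1.41).

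Ccnd2 (ENSMUSG00000000184.9, chr6:127075797-127101066, minus strand), which encodes cyclin D2, was at 1.28 FPKM (1.10 to 1.49) in wild type, while CAST+/129- had 6.88 (6.29 to 7.52), CAST-/129+ had 5.50 (4.75 to 6.34) and CAST-/129- had 42.1 (39.9 to 44.3). Counts were 182, 489, 190 and 1399. Every deletion clone was above wild type, at 536% (451 to 639), 428% (348 to 528) and 3276% (2805 to 3844). By FPKM this was the largest ratio of the 10 genes in each clone, within counting error of Cdkn2b in CAST-/129+, and 99.9% of all genes had a smaller log2 ratio in CAST-/129-. Against the clones with the deletion on 1 allele, CAST-/129- was at 611% (551 to 679) of CAST+/129- and 765% (657 to 895) of CAST-/129+.

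Ccnd3 (ENSMUSG00000034165.8, chr17:47642000-47736632, plus strand), which encodes cyclin D3, was at 155 FPKM (152 to 159) in wild type, compared with 118 (114.4 to 122.5) for CAST+/129-, 109 (104 to 115) for CAST-/129+ and 94.1 (88.9 to 99.5) for CAST-/129-. Wild type was the highest library and CAST-/129- the lowest, at 60.6% of wild type (57.0 to 64.3), with a log2 ratio of -0.70. The ratio became positive (0.40) when each start position was counted once. That unit cannot exceed the 2255 exonic bases of the gene, which had 8705 alignments in wild type and 1237 in CAST-/129-. In reads before collapsing Ccnd3 was at 70.7%, 63.8% and 56.8% of wild type in CAST+/129-, CAST-/129+ and CAST-/129-. Of its 5 exons with at least 50 wild type counts, all were below wild type in CAST-/129+ and CAST-/129- and 4 were in CAST+/129-.

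The D cyclins together were at 179 FPKM in wild type, compared with 147 for CAST+/129-, 141 for CAST-/129+ and 212 for CAST-/129-. Their sum in CAST-/129- was 1.18 times wild type, and its makeup differed too. Ccnd3 supplied 86.9% of the sum in wild type and 44.4% in CAST-/129-. Ccnd1 went from 12.4% to 35.7% and Ccnd2 from 0.72% to 19.9%. In the clones with the deletion on 1 allele Ccnd3 still supplied 80.6% and 77.9%. These sums and shares depended on the unit, a comparison chosen after seeing the data. With each start position counted once, the sum was 106 FPKM in wild type and 2.20 times that in CAST-/129-, while the sums of CAST+/129- and CAST-/129+ passed from below wild type to 1.31 and 1.41 times it. Ccnd3 then supplied 68.5% in wild type and 41.5% in CAST-/129-, Ccnd1 supplied 29.2% and 36.1%, and Ccnd2 supplied 2.34% and 22.4%. In CAST+/129- and CAST-/129+ the share of Ccnd3 was 69.5% and 71.4% in this unit, above wild type rather than below it. The limit given above for Ccnd3 in this unit applies to these sums and shares too. In reads before collapsing the sum in CAST-/129- was 1.14 times wild type, with Ccnd3 at 90.5% and 44.9%. The share of Ccnd3 was lower in CAST-/129- in all 3 units.

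**Figure D4:**
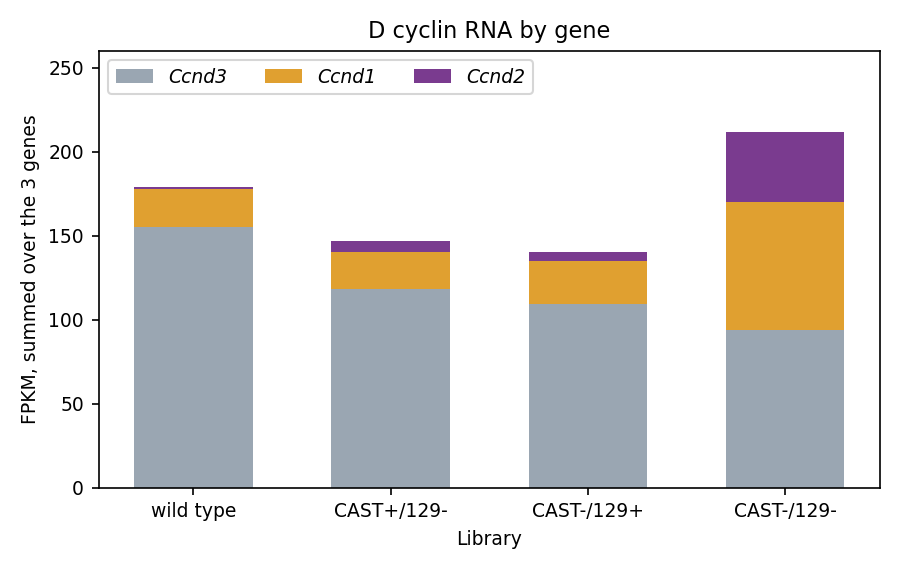
Stacked FPKM of the 3 D cyclin genes in the 4 F123 libraries, on a linear axis from 0. Ccnd3 makes up 86.9% of the sum in wild type and 44.4% in CAST-/129-, where Ccnd1 and Ccnd2 take the rest of 212 FPKM; with each start position counted once, which is not drawn, these shares are 68.5% and 41.5%.

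Listed partners of these genes in the cell cycle were not called, though levels of some differed. Of 19 genes for G1 kinases, cyclin E, pocket proteins and E2F factors, 0 passed 3-fold in any clone. Over all genes 0.819% were called up and 0.511% down in CAST-/129-, so that 0 in a list of this size is near that share. The median log2 ratio of the 19 in CAST-/129- was -0.10, and 8 of them were higher than wild type. Cdk4, the kinase that D cyclins activate, was at 83.7 FPKM in wild type, while CAST+/129- had 106, CAST-/129+ had 128 and CAST-/129- had 113, and Cdk6 was at 11.7, 6.58, 5.44 and 9.69 FPKM. Rb1, the retinoblastoma gene, was at 8.18, 4.78, 5.84 and 8.75 FPKM. Rbl1, another pocket protein gene, was at 9.19, 4.82, 4.13 and 3.66 FPKM. E2f2 was at 11.8, 5.41, 2.57 and 3.30 FPKM, below wild type in every clone but not past the threshold with the pseudo-value. Of 7 cyclins and kinases of S, G2 and M phase, 0 passed, again near the share of all genes, with Ccnb1 (cyclin B1) at 44.2 FPKM in wild type and 44.1 in CAST-/129-.

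For each gene past 3-fold, the genes with the most similar set of 3 log2 ratios were sought by Euclidean distance among 9528 genes with a mean of at least 5 FPKM. These sets share the wild type library, and the likeness is a description. The nearest to Cdkn2a were Flnc (distance 0.04), Ifi27l1 (0.15) and Vgll3 (0.16). The nearest to Cdkn2b were Mrc2 (0.08), Lgals3bp (0.16) and Ccdc80 (0.18). The nearest to Ccnd1 were Fstl1 (0.13), Serpine2 (0.23) and Saa3 (0.24), and the nearest to Ccnd2 were Grem1 (0.29), Mgp (0.39) and Ccl2 (0.42). No gene was among the nearest 3 of more than 1 of these. Flnc was at 5.34 FPKM in wild type and 17.8, 13.0 and 26.9 in the clones, close to Cdkn2a in level as well.

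Markers of other cell types moved in the same libraries. Over all genes, 0.321%, 0.473% and 0.819% were called up in CAST+/129-, CAST-/129+ and CAST-/129-. The shares called down were 0.305%, 0.33% and 0.511%. Of 14 fibroblast markers, 2 were called up in CAST+/129-, 2 in CAST-/129+ and 9 in CAST-/129-, and their summed level was 334 FPKM in wild type, 295 and 317 in the clones with 1 deleted allele and 898 in CAST-/129-. Of the 14, 10, 11 and 14 were higher than wild type in CAST+/129-, CAST-/129+ and CAST-/129-. In wild type 9 were at 1 FPKM or more, led by Fn1 at 191 and Sparc at 116. Fn1 was at 110, 104 and 210 FPKM in the same clones, Sparc at 92.2, 115 and 189, and Thy1, at 11.4 FPKM in wild type, at 5.69, 6.28 and 27.7, so that these were lower or level with 1 allele deleted and higher in CAST-/129-. Col1a1, for collagen I, was at 3.48, 39.0, 38.9 and 174 FPKM. Dcn was at 0.06, 1.74, 1.36 and 30.3 FPKM, and Lum had a count of 0 in wild type and was at 8.60 FPKM in CAST-/129-. Of 7 measured trophectoderm markers, 3, 4 and 3 were called up in CAST+/129-, CAST-/129+ and CAST-/129-, with summed levels of 21.1 FPKM in wild type and 341, 574 and 546 in the clones. Of 5 primitive streak markers, 0, 2 and 4 were called up, with sums of 1.02 in wild type and 5.23, 40.4 and 80.5 in the clones. Of 6 primitive endoderm markers, 3, 2 and 2 were called down, with sums of 118 in wild type and 23.2, 55.4 and 29.8. Of 10 ES cell markers, 1, 1 and 5 were called down, with sums of 1823 in wild type and 1585, 1488 and 1095. The part of these cell types in the values of the 10 genes, or of listed genes such as Cdkn1c, was not tested. The chromosomes of the 10 genes had median log2 ratios between -0.11 and 0.08 in all clones, over genes with a mean of at least 5 FPKM.

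H3K4me3 marks active and poised promoters and H3K27ac marks active ones. Both were counted as 5′ ends of distinct alignments within 2 kb on each side of the gene start, the outermost annotated base, and divided by the autosomal mean density of the same library. No input library was used here, a start at 5 times the mean or more was called marked, and levels were not compared between libraries. By this rule 8 of the 10 genes were marked by H3K4me3, against 35% of all gene starts. For H3K27ac, 7 of 10 were marked in F123, against 21.9%, and 7 of 10 in J1, against 17.6%. Of genes at 1 FPKM or more in wild type, to which all 10 belong, 67.4%, 43.5% and 34.4% were marked in the same order.

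Over 2 kb on each side of the outermost start, Trp53 had the highest H3K4me3 value, at 30.6 times the mean (27.4 to 34.0), above Cdkn1b (21.3) and Mdm2 (20.5). This order changed with the window, since over 1 kb on each side Cdkn1b (36.7) and Mdm2 (33.9) were above Trp53 (32.1), and over 5 kb Cdkn1a (16.4) was above Trp53 (15.1). Ccnd1 (13.6), Cdkn2a (13.2) and Ccng1 (12.1) followed, with Ccnd2 at 7.22 (5.74 to 8.98) and Cdkn2b at 6.60 (5.18 to 8.28). The remaining genes, Cdkn1a at 4.64 (3.46 to 6.08) and Ccnd3 at 3.03, missed the threshold at the outermost start but not at another annotated start, where they reached 36.5 and 17.9. The interval of Cdkn1a at the outermost start spans the threshold, and over 1 kb on each side that start was called marked, at 5.53. Counted at the highest annotated start, all 10 were marked by H3K4me3, against 36.6% of all genes. The H3K27ac count stayed at 7 of 10 with this rule in F123, against 23.7%, and in J1, against 19.2%.
Cdkn1a start with the highest H3K4me3 (mm9 chr17:29230464-29230763, plus strand, RefSeq of GRCm38.p6, GC boxes in capitals): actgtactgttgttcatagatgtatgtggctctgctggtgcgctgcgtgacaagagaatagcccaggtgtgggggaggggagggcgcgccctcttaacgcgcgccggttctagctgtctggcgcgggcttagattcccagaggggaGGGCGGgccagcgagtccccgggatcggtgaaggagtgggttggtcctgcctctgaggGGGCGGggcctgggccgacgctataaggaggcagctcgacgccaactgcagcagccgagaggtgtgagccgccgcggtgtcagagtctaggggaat
This Cdkn1a promoter, shown because H3K4me3 was higher there than at the outermost start, held 2 GC boxes and 23 CG dinucleotides. The RefSeq promoter at the outermost start held no GC box and 2 CG dinucleotides.

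For H3K27ac, 7 genes were called marked and 3 were not over 2 kb on each side. With 1 kb on each side Cdkn2a was also called marked in F123, at 5.60, while Cdkn2b was at 4.80. In F123, Mdm2 was at 77.7 times the mean (67.1 to 89.4), Trp53 at 56.4, Cdkn1a at 30.03, Cdkn1b at 28.0, Ccnd1 at 22.0, Ccng1 at 15.2 and Ccnd3 at 6.41, the last reaching 35.2 at its other start. Cdkn2a was at 2.80 (1.13 to 5.77), Ccnd2 at 2.80 (1.13 to 5.77) and Cdkn2b at 2.40 (0.88 to 5.23), from 7, 7 and 6 alignments. In J1 the same genes were the unmarked ones, at 2.36 for Cdkn2a, 2.44 for Ccnd2 and 2.69 for Cdkn2b, while the other 7 ranged from 8.79 (Ccng1) to 29.9 (Trp53). The upper bounds of the 3 unmarked genes in J1 were at most 3.77. In F123, with 2.50 alignments per window at the mean, the upper bounds passed 5, so that the F123 library alone does not place them below the threshold.

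Within 10 kb on each side, in bins of 500 bp, the marks at Cdkn2b were narrow. All 6 H3K27ac alignments of F123 in its start window fell in the bin just after the start, which was at 19.2 times the mean, and the same bin was at 11.7 in J1 and at 36.4 for H3K4me3. Ccnd2 had no bin above 6.41 in F123 H3K27ac and none above 4.56 in J1, while H3K4me3 reached 14.3. At Cdkn2a, H3K4me3 was at 13.2 times the mean (11.2 to 15.5) around the exon 1beta start and at 3.21 (2.25 to 4.44) around the exon 1alpha start, and H3K27ac alignments of F123 were 7 and 1. In 500 bp bins, however, the bin just before the exon 1alpha start reached 14.3 in H3K4me3. The highest bin around the exon 1beta start, which ended 500 bp before that start, reached 35.0. The exon 1beta start, whose promoter printed above has 45 CG dinucleotides, was thus the one that passed 5 over 2 kb on each side, and exon 1beta was also the first exon with more wild type RNA (6.16 FPKM compared with 0.78).

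**Figure D5:**
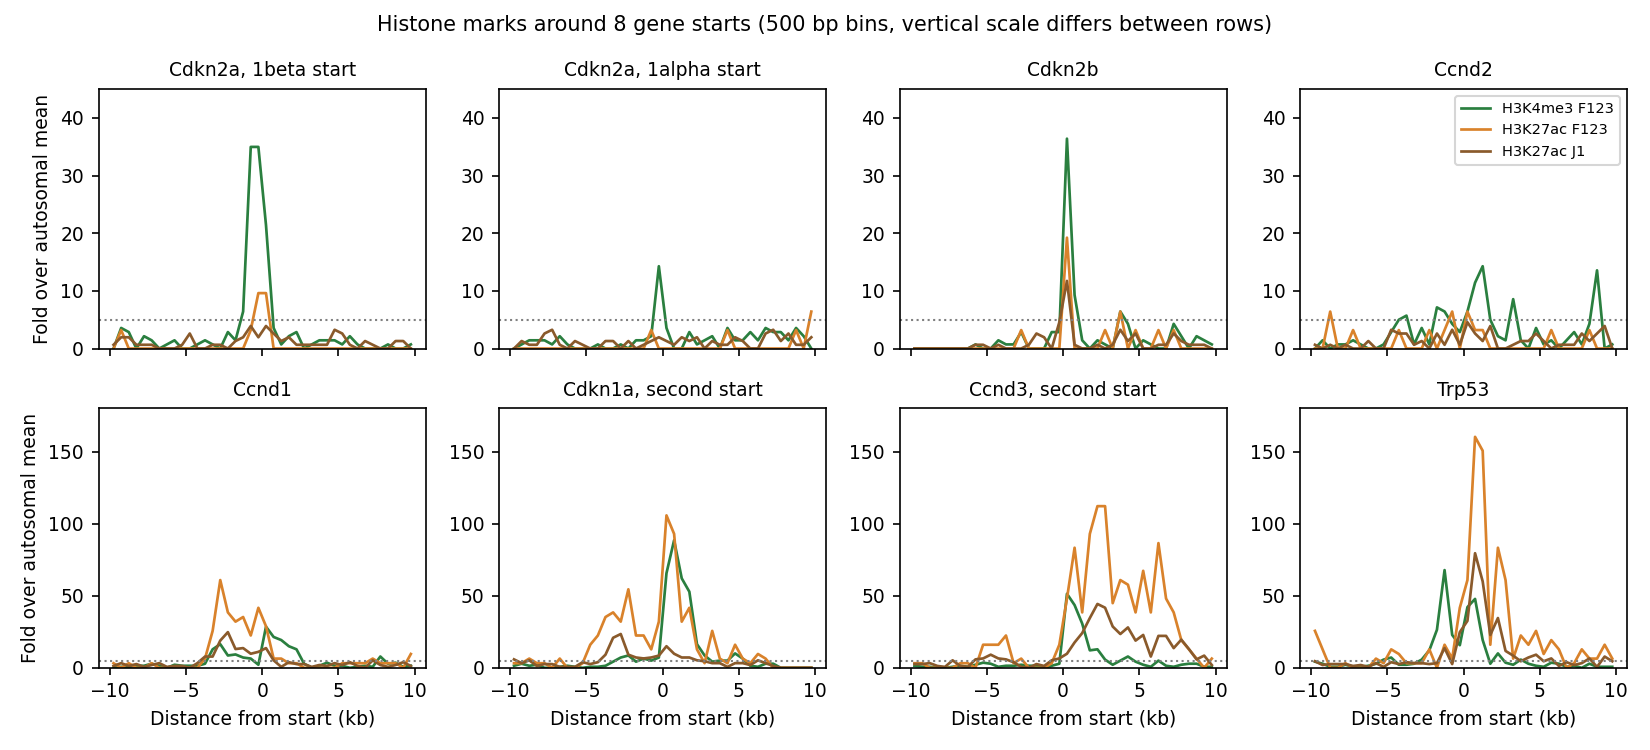
Histone marks in 500 bp bins within 10 kb on each side of 8 annotated starts, as fold over the autosomal mean of each library; the dotted line is 5, the vertical scale differs between the rows, and in F123 H3K27ac 1 alignment is 3.20 fold. The H3K4me3 peak near the exon 1beta start of Cdkn2a reaches 35.0, in a bin that ends 500 bp before that start. The peak at Cdkn2b reaches 36.4 with H3K27ac at 19.2 in F123 and 11.7 in J1 in the same bin. Ccnd1, Cdkn1a, Ccnd3 and Trp53 carry broader H3K27ac.

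Set beside expression, the 3 genes not called marked by H3K27ac over 2 kb on each side were the 3 with the lowest wild type FPKM and were all called up in CAST-/129-, together with Ccnd1, which carried both marks. Genome-wide, 4954 genes had H3K4me3 without H3K27ac in F123 at their highest start, and 0.868% of them were called up in CAST-/129-. This compares with 0.488% of 6564 genes with both marks, 0.891% of 19070 with neither and 1.48% of 878 with H3K27ac alone. The class of the 3 genes was therefore called up about as often as all genes, at 0.819%. ChIP-seq was from cells without the deletion, so that no mark was measured in the deletion clones.

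The letters of the promoters differed within the group. RefSeq promoters were matched for 8 of the 10 genes, 11 promoters in all, and not for Ccnd1 and Ccnd2. Of the 11, 8 held a GC box, compared with 35.7% of all promoters, and 1, that of Trp53, held TATAAA, compared with 13.6%. The Sox core motif CATTGT was in 0 of the 11 on either strand and in 12.6% of all promoters. CG dinucleotides ranged from 2 at the outermost Cdkn1a start to 45 at the exon 1beta start of Cdkn2a. These are matches of letters in windows of 300 bases, and binding was not measured here.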

How the data were processed

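RNA-seq was measured in 4 F123 clones and ChIP-seq in 3 libraries, with 1 library per condition, grouped by the sample labels. The authors mapped RNA-seq reads with Novoalign and USeq to mm9, and Bowtie is named in the submitters' processing notes. The deposited files list alignments, with identical ones collapsed to 1 line and a whole-number count of the reads behind each. Spliced reads are split into segments, the strand of an RNA line is the reverse of the transcript's, and alleles were not told apart. Distinct alignments were assigned by midpoint to exonic bases of 1 gene per strand in GENCODE M1 (NCBIM37), for genes of at least 200 such bases. Libraries held 7557984 to 33684661 distinct alignments for RNA and 1576875 to 7743500 for ChIP. The pseudo-value of 4 and the 3-fold threshold follow the study's methods. With 1 library per genotype no test was made. Intervals cover counting error only. The rules were tested on simulated data. The 10 genes, the gene lists and the rules were chosen with earlier results of these data known. Named genes are the 10 genes, listed genes past 3-fold, up to 4 examples per list and 3 nearest patterns. Alternatives changed the unit, library size, strand, pseudo-value, threshold, depth, filter, exonic bases and annotation, and for ChIP-seq the window, reference, unit, start and threshold. Scripts ran under Python 3.11.15 with scipy 1.17.1, numpy 2.4.6, pandas 2.3.3 and matplotlib 3.10.9. From the planned list of p53 targets, 1 gene is not reported here. Hi-C, RT-qPCR and allele-specific data were not analysed here.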

Additional observations from a re-analysis of the deposited data

How the results depend on the processing

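In CAST-/129- the number of genes called up, 4 of 10 against 0.819% of all genes, changed with the setting. It became 2 (Cdkn2b and Ccnd2) with each start position counted once, with a pseudo-value of 10 and with a 5-fold threshold. Of all genes, 0.743%, 0.381% and 0.327% were called up in these settings. The number was 3 with both strands counted (0.794% of all genes) and with all libraries thinned to the shallowest (0.806%), both without Ccnd1. It was 5 in reads before collapsing (0.835%) and at 2-fold (2%), both with Cdkn1a added. In CAST+/129- the number called up, 0, became 1 (Ccnd2) with a pseudo-value of 1 (0.911% of all genes) and 2 (Cdkn2a and Ccnd2) at 2-fold (0.905%). In CAST-/129+ it became 1 (Cdkn2b) with a pseudo-value of 1 (1.36% of all genes) and 1 (Cdkn2b) at 2-fold (1.22%). The changes with the pseudo-value and threshold follow from their construction. Counting each start position once also limits a gene by construction, to at most its number of exonic bases. For Ccnd3 these are 2255 bases, compared with 8705 alignments in wild type and 1237 in CAST-/129-. The part of this limit in the changes with the unit, and any other cause of them, was not tested. No gene of the 10 was called down under any alternative run, while 0.0444% to 1.92% of all genes were, by clone and setting. The number of marked promoters was 6 to 10 for H3K4me3, 6 to 8 for H3K27ac in F123 and 5 to 7 in J1. Under the main rule the shares of all gene starts marked were 35%, 21.9% and 17.6%. At the highest annotated start they were 36.6%, 23.7% and 19.2%. Shares under the other ChIP-seq settings are not given here, so that the ends of these ranges cannot be set against all genes. Of 330 single log2 ratios under the alternatives, 61 moved by more than counting error, and the sign turned only for Trp53 in CAST-/129+ and CAST-/129- (reads before collapsing), for Ccnd3 in each clone (each start position counted once) and for Ccnd1 in CAST+/129-, whose ratio was near 0. No paired analysis was possible because each genotype has 1 library. Depth limits the first exons of Cdkn2a, with 4 counts on exon 1alpha in wild type and in CAST-/129+, and promoters in the F123 H3K27ac library, with 2.50 alignments per window at the mean.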
